A study of Mus musculus with 5 samples.

Results

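Chemokines are small secreted proteins that direct the migration of leukocytes and of some glial progenitors, and their receptors couple to G proteins of the Gi class and through these to PI3K, the kinase that LY294002 inhibits. They are named by the spacing of their first cysteines (CC, CXC, CX3C and C), and inflammatory members are induced by NF-κB and interferon signals, whereas homeostatic members such as Cxcl12 are expressed in resting tissue. In white matter the main sources are microglia, astrocytes and the cells of vessels and meninges. The genes described here are those whose symbol in the platform annotation starts with a chemokine or chemokine receptor root followed by a number, without the circadian gene Ccrn4l and without pseudogenes. These are 49 genes, 32 ligands and 17 receptors, of 18193 genes with a probe set of their own, and 76 of 45101 probe sets. The gene ID of all 49 leads to the same symbol in RefSeq. Cxcl11 was left out because RefSeq lists it as a transcribed pseudogene in the C57BL/6J assembly. A further 4 probe sets that name several genes, a chemokine symbol among them, were left out as well.

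Optic nerves of C57BL/6 mice aged postnatal day 35 to 45 were kept for 3 days in organotypic culture with LY294002, and their RNA was read on Affymetrix GeneChip mouse genome arrays. L-LY29 is the low dose, 0.5 µM in the labels, on 3 arrays, and H-LY29 is the high dose, 50 µM, on 2 arrays. The study's methods give a higher low dose for nerves of this age, and which of these the L-LY29 nerves received was not settled. Sample titles name LY294002 and treatment entries LY295002, taken here as the same compound. All nerves shared the serum-containing medium and the inhibitor, so no group is untreated, and saline or DMSO nerves were not analysed here. Nerves were taken with the retina and then cleaned of arachnoid and adhering tissue. How nerves and mice were split between arrays is not stated in the sources used here. The p-values therefore cover the array-to-array spread alone, which may be technical, and having only 5 arrays limits the precision.

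Every value is a log2 signal as deposited, and every difference is L-LY29 minus H-LY29 in log2 units. Array medians lay between 5.33 and 5.35 for L-LY29 and between 5.54 and 5.56 for H-LY29. Of all probe sets 39.5%, 25 of the 76 chemokine probe sets among them, held a value equal to the last digit on at least 2 L-LY29 arrays. The 24 poly-A control probe sets averaged 10.22 in L-LY29 but 3.17 in H-LY29, and the highest of their H-LY29 means, 4.14, was used as the background limit. The 3′ minus 5′ signal was 0.43 in L-LY29 and 0.92 in H-LY29 for actin, and -0.13 and 0.69 for Gapdh. These control signals thus differed with the dose. An effect of the dose and a difference in RNA preparation cannot be told apart in the results below. Markers of oligodendrocytes, the myelin-forming cells of the nerve, were well above the limit on all arrays, with a summed log2 signal from 15.94 to 16.35. The ocular surface epithelium list, keratins and other genes, stood apart. Of its 9 tested markers 8 were higher in L-LY29, beside 27.1% of all genes tested. Krt6b, Krt13, Psca, Lypd2, Asprv1 and Calml3 had H-LY29 means under the intensity filter of 4.77. They were tested only because their L-LY29 signal was higher and add nothing to the count. The median difference of 6.02 is that of Calml3, whose H-LY29 mean of 2.82 was under the background limit, and is not read as a fold. The linear sums ran from 4383 to 26302 in L-LY29 and from 187 to 223 in H-LY29. The part of this list in the results below was not tested.

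Chemokine genes went both ways between the doses. Of the 31 genes bright enough to be tested, 12 were higher and 11 lower in L-LY29 (limma, Benjamini-Hochberg adjusted p under 0.05), 8 did not pass and the other 18 fell under the intensity filter. Of the 12, Ccl22, Ccr2, Ccr10 and Cxcl17 had an H-LY29 mean under the filter and were tested only because their L-LY29 signal was higher, so these 4 add nothing to the count. Over all 12935 genes tested, 73.8% were called, 27.1% higher and 46.6% lower, so the 74.2% of tested chemokine genes that were called is close to the share of any genes. With quantile normalization the split was 16 higher and 9 lower, against 39.5% and 36.4% over all genes. Without the filter, 23 of the 49 were higher and 8 lower, against 64.7% of all 18193 genes called, 29.1% higher and 35.6% lower. The doses did not overlap for 27 of the 31, against 83.1% of all genes tested. The median difference was 0.26 over the chemokine genes tested and -0.26 over all genes tested. The sign of the chemokine median is not settled: it was -0.87 with a filter at the 60th percentile, -0.38 with the mean of each gene's probe sets, and -0.36, -0.56 and -0.43 without L-LY29 replicates 1, 2 and 3. Quantile normalization moved the median of all genes to 0.06, and differences smaller than that shift depend on the scaling. In this bulk tissue fewer cells of a type and less RNA per cell cannot be told apart.

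**Figure D1:**
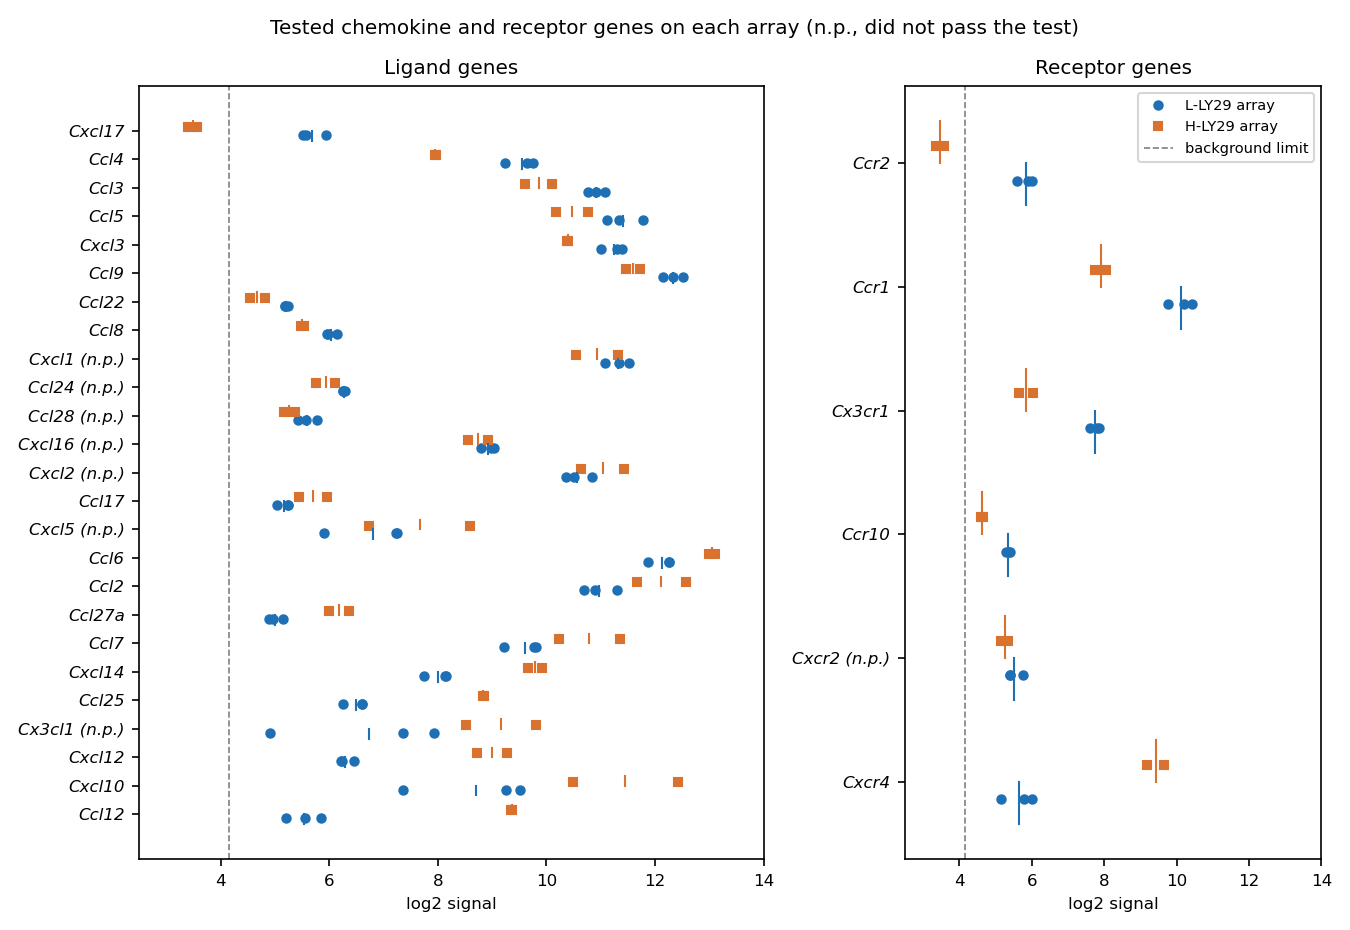
Log2 signal (x axis) of the 25 ligand genes and 6 receptor genes that were tested, sorted by difference; circles are the 3 L-LY29 arrays, squares the 2 H-LY29 arrays, short vertical lines the dose means, the dashed line the background limit of 4.14, and n.p. marks genes that did not pass the test. Ccl12, Cxcl12 and Cxcr4 lie far to the right in H-LY29, and Ccr2, Ccr1 and Cx3cr1 far to the right in L-LY29.

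Ligands and receptors were counted apart, where 73.8% of all genes tested were called, 27.1% higher and 46.6% lower. Ligands were tested for 25 of 32 genes, of which 8 were higher, 10 lower and 7 did not pass, with a median of -0.46. Receptors were mostly dim: 6 of 17 were tested, 4 were higher, 1 was lower and 1 did not pass, with a median of 1.32. Ccl22 and Cxcl17 among the higher ligands and Ccr2 and Ccr10 among the higher receptors reached the filter through L-LY29 alone. The difference between ligands and receptors was not tested. Near background in both doses were 9 genes, the ligands Cxcl9, Cxcl15 and Xcl1 and the receptors Ccr3, Ccr7, Ccr8, Cxcr5, Cxcr6 and Xcr1. This count depends on the limit, with 16 genes at the 40th percentile of all probe sets and 1 at the highest trpn control value. Another 7 were near background in H-LY29 alone (Ccl20, Cxcl17, Ccr1l1, Ccr2, Ccr4, Ccr6 and Cxcr3) and 1, Ccr9, in L-LY29 alone, where its mean of 4.14 and the H-LY29 mean of 4.17 straddled the limit. The remaining 32 genes were above the limit in both doses.

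**Figure D2:**
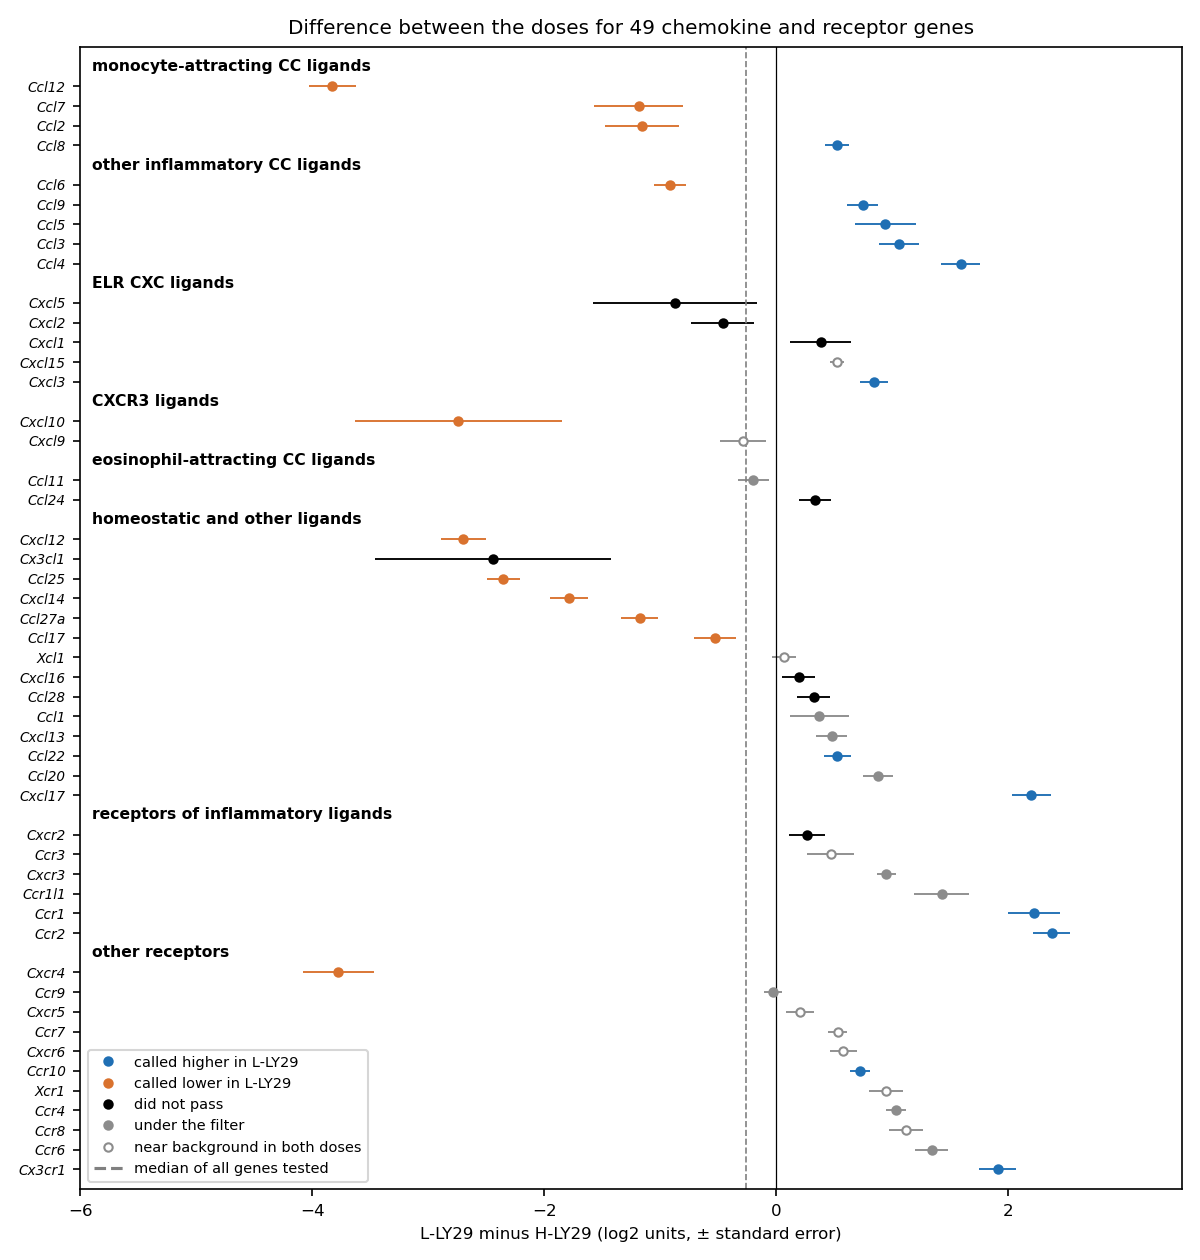
Difference L-LY29 minus H-LY29 in log2 units (x axis) for all 49 genes by role, with the standard error as bars; colour gives the call, grey marks genes under the filter, open circles genes near background in both doses, and the dashed line the median of all genes tested, -0.26. Within a role genes lie on both sides of 0, and most receptors lie to the right of 0.

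The monocyte-attracting CC ligands, of which Ccl2, Ccl7 and Ccl12 act on Ccr2, were called in all 4 cases, beside 73.8% of all genes tested. Ccl12, a mouse monocyte chemoattractant, read 5.20, 5.55 and 5.85 on the L-LY29 arrays and 9.37 and 9.35 on the H-LY29 arrays. No L-LY29 array came near the H-LY29 arrays, and the difference of -3.83 (SE 0.20, limma adjusted p = 9.86e-05) was the largest among the chemokine genes tested, a fold of 14.2 on this scale. Ccl2, the principal monocyte chemoattractant, read 10.89, 10.70 and 11.31 in L-LY29 and 11.67 and 12.57 in H-LY29. The doses did not overlap, but the H-LY29 arrays lay apart from each other. The difference was -1.16 (SE 0.32, limma adjusted p = 0.0235), and without H-LY29 replicate 2 it was -0.71 with an adjusted p of 0.144; the call was also lost without L-LY29 replicate 1 (adjusted p = 0.0710) or replicate 2 (adjusted p = 0.0723).

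Ccl7, which attracts monocytes through several receptors, read 9.78, 9.22 and 9.81 in L-LY29 and 10.23 and 11.35 in H-LY29. It showed the same order as Ccl2, with the second H-LY29 array the highest. The difference was -1.19 (SE 0.38, limma adjusted p = 0.0383), -0.63 without H-LY29 replicate 2 (adjusted p = 0.195), and the call was lost without any L-LY29 array too (adjusted p from 0.0720 to 0.103) and with quantile normalization (adjusted p = 0.0553). Ccl8 went the other way, with means of 6.03 ± 0.10 (SD, n = 3) and 5.50 ± 0.03 (SD, n = 2) and a difference of 0.52 (SE 0.10, limma adjusted p = 0.00698).

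The receptor Ccr2 itself, which marks inflammatory monocytes, read 6.01, 5.60 and 5.91 in L-LY29 and 3.58 and 3.35 in H-LY29. The H-LY29 arrays were both under the background limit and all L-LY29 arrays above it, so the brightest Ccr2 probe set was at least 3.24-fold higher in L-LY29, with the limit standing in for the dimmer dose (difference 2.38). It reached the intensity filter through its L-LY29 arrays alone, so the test given is the one over all probe sets without a filter (limma adjusted p = 0.000466). With no filter and any single L-LY29 array left out, an alternative chosen after seeing the data, the adjusted p was at most 0.00396. Its 3 other probe sets were near background in both doses, 1 of them higher in L-LY29 by 0.98 and the others by 0.10 and 0.29 without passing. The receptor and 3 of its ligands thus had opposite signs. Among monocyte markers, 3 of 5 on the array were tested: Plac8 was higher by 4.16 in L-LY29, Vcan and Fn1 were lower with differences of -1.89 and -1.42, and the linear sums ran from 1476 to 3054 in L-LY29 and from 3159 to 4601 in H-LY29. Plac8 read 10.82, 8.22 and 8.73 on the L-LY29 arrays, in the same order as the ocular surface keratin Krt6b (12.98, 10.62 and 11.42). Vcan and Fn1 had the direction of the fibroblast markers given below. The part of these markers in the Ccr2 result was not tested.

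The other inflammatory CC ligands are made largely by macrophages and microglia and act on Ccr1 and related receptors. All 5 were called, 4 of them higher in L-LY29, where 73.8% of all genes tested were called and 27.1% were higher. Ccl4, known as MIP-1β, read 9.24, 9.76 and 9.64 in L-LY29 and 7.96 and 7.94 in H-LY29. Ccl3, known as MIP-1α, read 10.77, 11.07 and 10.91 in L-LY29 and 10.10 and 9.61 in H-LY29. Every L-LY29 array was above every H-LY29 array for both genes. The differences were 1.59 for Ccl4 (SE 0.17, limma adjusted p = 0.000736) and 1.06 for Ccl3 (SE 0.17, limma adjusted p = 0.00358), and these calls remained under every alternative run.

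Ccl5, known as RANTES, read 11.12, 11.77 and 11.33 in L-LY29 and 10.17 and 10.77 in H-LY29. The doses did not overlap, but the gap between them was smaller than the range within either dose. The difference was 0.94 (SE 0.26, limma adjusted p = 0.0244), and it was 0.64 without H-LY29 replicate 1 (adjusted p = 0.189). The call was lost as well without H-LY29 replicate 2 (adjusted p = 0.0550), L-LY29 replicate 2 (adjusted p = 0.0522) or L-LY29 replicate 3 (adjusted p = 0.0607).

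Ccl9, a relative of Ccl6 found in rodents and a ligand of Ccr1, averaged 12.33 ± 0.18 (SD, n = 3) at the low dose and 11.59 ± 0.18 (SD, n = 2) at the high dose. It differed by 0.75 (SE 0.13, limma adjusted p = 0.00489), but the adjusted p was 0.0659 without H-LY29 replicate 2, and a second probe set of the gene gave 3.39 (SE 0.18). Ccl6 was the exception in this group, with 11.88, 12.26 and 12.26 in L-LY29 and 13.10 and 12.99 in H-LY29. All L-LY29 arrays were below both H-LY29 arrays, and the difference was -0.92 (SE 0.14, limma adjusted p = 0.00248), with an adjusted p of 0.0515 without H-LY29 replicate 1. The second Ccl6 probe set gave -0.23 and did not pass.

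Ccr1, the receptor shared by Ccl3, Ccl5, Ccl6 and Ccl9, read 9.76, 10.42 and 10.21 in L-LY29 and 8.06 and 7.75 in H-LY29. The doses lay well apart, with a difference of 2.22 (SE 0.22, limma adjusted p = 0.000616). Its dimmer probe set gave 0.35 and did not pass. Ccr1l1, a Ccr1-like gene, was under the filter, with means of 4.31 and 2.88, so that L-LY29 exceeded the background limit only slightly. Microglial markers moved in the same direction in the majority of cases, with 9 of 15 higher and 4 lower in L-LY29. Over all genes tested 27.1% were higher and 46.6% lower. The microglial median was 0.62, and the linear sums ran from 18359 to 21716 in L-LY29 and from 13888 to 14710 in H-LY29. Itgam was higher by 3.56 and C1qa by 1.36, whereas Sall1, a microglial transcription factor, was lower with a difference of -3.49. The other lower markers were Gpr34 at -1.40, C1qb at -1.14 and Tmem119 at -0.45. Fcrls, among the higher ones, reached the filter through L-LY29 alone, and Gpr34 through H-LY29 alone. What these markers contribute to the Ccr1, Ccl3 and Ccl4 differences was not tested.

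The CXC ligands with an ELR motif draw neutrophils through Cxcr2. Those within the naming rule gave 1 call in 4 tested genes, beside 73.8% of all genes tested. Ppbp, an ELR ligand whose symbol lies outside the rule, was lower in L-LY29, with means of 9.61 and 11.32. Its difference was -1.71 (SE 0.27, limma adjusted p = 0.00327). Cxcl3 read 11.01, 11.39 and 11.30 in L-LY29 and 10.40 and 10.38 in H-LY29. The doses did not overlap, with a difference of 0.84 (SE 0.12, limma adjusted p = 0.00229). Cxcl1 had means of 11.31 ± 0.22 (SD, n = 3) and 10.93 ± 0.55 (SD, n = 2), and Cxcl2 had means of 10.57 ± 0.24 and 11.03 ± 0.56. Neither passed, with differences of 0.38 (limma adjusted p = 0.243) and -0.46 (limma adjusted p = 0.184), and the doses overlapped for both. The sign of the Cxcl1 difference rests on the probe set, since the dimmer ones gave -0.99 (limma adjusted p over all probe sets = 0.0333) and -0.69 (not passed), and with quantile normalization another probe set became the brightest and gave -0.65.

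Cxcl5, made by epithelial and stromal cells, had the widest spread of the ELR group, from 5.91 to 7.25 in L-LY29 and from 6.74 to 8.60 in H-LY29, and did not pass (-0.87, SE 0.71, limma adjusted p = 0.310). Cxcl15, known as lungkine, was near background in both doses with means of 3.54 and 3.01. Their receptor Cxcr2 had means of 5.51 and 5.25 and did not pass (0.26, limma adjusted p = 0.182). Of 9 neutrophil markers on the array 5 were tested, 2 higher and 3 lower in L-LY29, beside 27.1% and 46.6% of all genes tested. The differences were -3.41 for S100a8 and -3.10 for Camp, and 2.03 for the G-CSF receptor gene Csf3r and 0.67 for Ltf. Csf3r and Ltf had H-LY29 means of 4.53 and 4.51, under the filter. Both were tested only because their L-LY29 signal was higher, so they add nothing to the count. The linear sums of the neutrophil markers ran from 381 to 495 in L-LY29 and from 1656 to 1724 in H-LY29. The part of these markers in the ELR ligand values was not tested.

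The promoters of Cxcl1, Cxcl2 and Cxcl3 are shown because these neighbouring genes share an NF-κB-like stretch while only Cxcl3 passed the test between the doses. The table of RefSeq promoters (250 bases before to 50 after each start, build GRCm38.p6) held 37 of the 49 genes; Ccl2, Ccl4, Ccl5, Ccl7, Ccl11, Ccl24, Ccr7, Ccr10, Cxcl5, Cxcl16, Cxcl17 and Cxcr5 were not among them. Capitals mark matches to the NF-κB-like motif (GGGA, any 4 bases, CC) on either strand, which overlap where the stretch reads alike on both strands. The windows are Cxcl1 at chr5:90891140-90891199, Cxcl2 at chr5:90903787-90903827 and Cxcl3 at chr5:90786013-90786053, all on the plus strand and upstream of the start.
Cxcl1: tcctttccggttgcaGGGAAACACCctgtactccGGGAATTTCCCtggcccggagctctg
Cxcl2: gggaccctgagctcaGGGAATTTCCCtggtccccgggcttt
Cxcl3: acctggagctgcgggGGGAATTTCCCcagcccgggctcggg
The same 11 bases in capitals occur in all 3 windows, and Cxcl1 holds a further match upstream of them. The narrower motif (GGGA, any base, TTTCC), on either strand, was found in 4 of the 37 genes (these 3 and Ccr3) and in 0.466% of all 27025 genes with a promoter in the table. The wider motif was found in 15 of the 37 genes and in 22.9% of all genes, in 3 of 8 genes higher and 2 of 9 genes lower in L-LY29.

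Of the Cxcr3 ligands, Cxcl10 alone was above background. Cxcl10, which draws activated T cells and is induced by interferons, read 9.25, 7.36 and 9.52 in L-LY29 and 10.48 and 12.42 in H-LY29. The doses did not overlap, but the spread within each dose was close to 2 log2 units or more. The difference of -2.74 (SE 0.89, limma adjusted p = 0.0394) depended on every array: the adjusted p lay between 0.0523 and 0.274 when any of the 5 was left out, and the difference was -1.78 without H-LY29 replicate 2. Cxcl9, the other interferon-induced ligand, was near background, with means of 3.20 and 3.49, and its receptor Cxcr3 had means of 4.66 and 3.71, under the filter.

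The Cxcl10 promoter is shown because it held both motifs searched, the NF-κB-like one and the interferon response motif (GAAA, any 2 bases, GAAA), again in capitals. The window is chr5:92348968-92349117 on the minus strand, from -228 to -79 of the start.
Cxcl10: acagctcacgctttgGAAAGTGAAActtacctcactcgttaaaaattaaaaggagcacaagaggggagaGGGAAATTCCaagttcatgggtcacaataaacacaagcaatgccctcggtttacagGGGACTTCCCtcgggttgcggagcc
The interferon response motif, on either strand, was found in 2 of the 37 genes, Cxcl10 and Cxcl14, and in 3.99% of all genes. Such matches describe the letters only. Markers of T and NK cells, on which Cxcr3 is known, were largely dim, with 6 of 11 near background in both doses. Cd3g, Gzmb and Ncr1 were among these 6. The 3 tested were called, beside 73.8% of all genes tested. Cd3e in H-LY29 and Cd247 in L-LY29 had means under the filter and were tested only through the other dose. These genes add nothing to the count. Cd3e was higher by 2.43 in L-LY29, with an H-LY29 mean of 3.42 under the background limit. Cd4 was higher by 0.47, and Cd247, with an L-LY29 mean of 4.62, was lower at -1.54. The linear sums ran from 330 to 343 in L-LY29 and from 233 to 251 in H-LY29. The part of these markers in the Cxcl10 values was not tested.

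Of the 14 homeostatic and other ligands, 10 were tested, 2 were higher and 5 lower, beside 27.1% and 46.6% of all genes tested. The higher ones, Ccl22 and Cxcl17, reached the filter through L-LY29 alone. Cxcl12 and its receptor Cxcr4 were both lower in L-LY29. Cxcl12, also called SDF-1, is made by stromal, vascular and meningeal cells and guides progenitors and leukocytes. It read 6.23, 6.21 and 6.45 in L-LY29 and 9.27 and 8.72 in H-LY29. The doses were far apart relative to their spread, with a difference of -2.70 (SE 0.19, limma adjusted p = 0.000207), a fold of 6.49. A second probe set gave -2.38, and another, near background in both doses, gave 0.43.

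Cxcr4 read 5.14, 6.01 and 5.79 in L-LY29 and 9.65 and 9.19 in H-LY29. No array of one dose came within 3 log2 units of the other dose, and the difference was -3.78 (SE 0.31, limma adjusted p = 0.000303), a fold of 13.7. Both calls remained under every alternative run. Ackr3, the atypical receptor that scavenges Cxcl12, did not pass (-1.33, SE 0.50, limma adjusted p = 0.0598). Markers of stromal cells moved with this pair, beside 46.6% lower over all genes tested. For fibroblasts 10 of 10 markers were lower in L-LY29, with a median of -1.92 and linear sums from 3716 to 5075 against 16873 to 20986. For pericytes 5 of 6 were lower, with a median of -1.96 and sums from 360 to 453 against 1582 to 1718. The fibroblast list holds Pdgfra (-1.54), which the study used to mark oligodendrocyte progenitors. The differences were -6.64 for Col1a1 and -3.97 for Pdgfrb. Their part in the Cxcl12 and Cxcr4 results was not tested.

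Ccl25, a thymic and gut chemokine, read 6.25, 6.60 and 6.60 in L-LY29 and 8.84 and 8.83 in H-LY29. The doses did not overlap (-2.35, SE 0.14, limma adjusted p = 0.000125), but its second probe set, above background in both doses, gave 0.32 and was called higher in L-LY29, so the direction for the gene depends on the probe set. Its receptor Ccr9 was at or under the background limit, or within 0.1 of it, on all 5 probe sets. Cxcl14, an epithelial and stromal ligand without a settled receptor, read 7.74, 8.13 and 8.15 in L-LY29 and 9.92 and 9.67 in H-LY29. All L-LY29 arrays were lower, with differences of -1.78 on the brighter probe set (SE 0.16, limma adjusted p = 0.000447) and -2.39 on the other.

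Ccl27a, a keratinocyte chemokine in the skin, read 5.15, 4.96 and 4.88 in L-LY29 and 5.99 and 6.36 in H-LY29. It was lower in L-LY29, with a difference of -1.18 (SE 0.16, limma adjusted p = 0.00163), while its receptor Ccr10 was higher, at 5.30, 5.39 and 5.37 in L-LY29 against 4.60 and 4.65 in H-LY29. The arrays of each dose were tight for Ccr10, and its difference of 0.73 was the smallest among the called receptors. Ccr10 reached the filter through L-LY29 alone, and over all probe sets without a filter the limma adjusted p was 0.00172. Ccl28, another Ccr10 ligand, did not pass on its brightest probe set (0.32, limma adjusted p = 0.0997) and gave 1.14 on another above background, which was called.

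Cxcl17, a mucosal chemokine of epithelia, read 5.52, 5.57 and 5.95 in L-LY29 and 3.57 and 3.39 in H-LY29. Both H-LY29 arrays were under the background limit, which makes it at least 2.90-fold higher in L-LY29 (difference 2.20). Like Ccr2 it reached the filter through L-LY29 alone, and over all probe sets without a filter the limma adjusted p was 0.000600, and at most 0.00382 with no filter and any single L-LY29 array left out. It moved in the same direction as the ocular surface keratins, of which Krt12, the corneal keratin, was higher by 6.07 in L-LY29. On the L-LY29 arrays Krt12 read 12.20, 9.73 and 11.02, highest on replicate 1, where Cxcl17 was lowest. What these keratins contribute to Cxcl17 was not tested.

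The dendritic cell chemokines Ccl17 and Ccl22, both ligands of Ccr4, had opposite signs. Ccl17 had means of 5.17 ± 0.11 (SD, n = 3) and 5.70 ± 0.36 (SD, n = 2) with a difference of -0.53 (SE 0.18, limma adjusted p = 0.0466), and it lost its call with quantile normalization (adjusted p = 0.145), without H-LY29 replicate 2 (-0.27, adjusted p = 0.127) and without any single L-LY29 array (adjusted p from 0.0930 to 0.132). Ccl22 had means of 5.20 ± 0.04 and 4.67 ± 0.19 with a difference of 0.53. Ccl22 reached the filter through L-LY29 alone, and over all probe sets without a filter the limma adjusted p was 0.0148. Ccr4 was under the filter, with means of 4.36 and 3.33.

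Cx3cl1, the membrane-bound neuronal and endothelial ligand of microglia, read 7.93, 4.90 and 7.35 in L-LY29 and 8.52 and 9.81 in H-LY29. All L-LY29 arrays were lower, but L-LY29 replicate 2 lay far below the other two, and the difference of -2.44 (SE 1.01, limma adjusted p = 0.0807) did not pass. Of its 3 other probe sets, only the one near background was called, at 0.62. Its receptor Cx3cr1, a defining gene of microglia, read 7.87, 7.79 and 7.62 in L-LY29 and 6.04 and 5.65 in H-LY29. The arrays were tight and apart, with a difference of 1.91 (SE 0.16, limma adjusted p = 0.000319). Its second probe set read under the background limit on both H-LY29 arrays and was at least 2.22-fold higher in L-LY29, with the limit standing in for H-LY29 (limma adjusted p over all probe sets = 0.00227).

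Cxcl16, the ligand of Cxcr6, did not pass on its brightest probe set (8.93 and 8.74, limma adjusted p = 0.261) and was called lower on the other, at -0.94. Ccl24, an eosinophil chemoattractant, had means of 6.27 and 5.93 and did not pass (0.34, limma adjusted p = 0.0746), and Ccl11, the other eosinophil ligand, was under the filter with means of 4.46 and 4.65. With quantile normalization Ccl24, Ccl28, Cxcl16 and Cxcr2 passed as higher in L-LY29. Also under the filter and above the background limit in both doses were Cxcl13, the B-cell attractant (4.82 and 4.34), and Ccl1 (4.79 and 4.42), while Ccl20 had means of 4.59 and 3.70 and Xcl1 of 2.99 and 2.92.

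The dim receptors read slightly higher in L-LY29 for the most part. Means were 4.68 and 3.34 for Ccr6, the receptor of Ccl20, 3.42 and 2.29 for Ccr8, and 3.45 and 2.51 for Xcr1. Ccr7, the lymph node homing receptor, ran from 3.95 to 4.10 in L-LY29 and from 3.42 to 3.51 in H-LY29. For Cxcr6 they were 3.57 and 2.99, for Ccr3 3.34 and 2.87, and for Cxcr5 3.08 and 2.88. These values lie at or near the limit, and dim probe sets of the whole array lean the same way: of 10934 probe sets near background in both doses, 67.4% were higher in L-LY29, with a median of 0.12. The 22 chemokine probe sets of this kind had a median of 0.25. Limma over all probe sets called 9 of them higher and 0 lower, with 0 lower also at an unadjusted p under 0.05. Of all 45037 probe sets 28.6% were called higher and 30.3% lower. The share called among all probe sets near background was not counted, so the 9 have no like share beside them. Such calls were not read as expression.

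**Figure D3:**
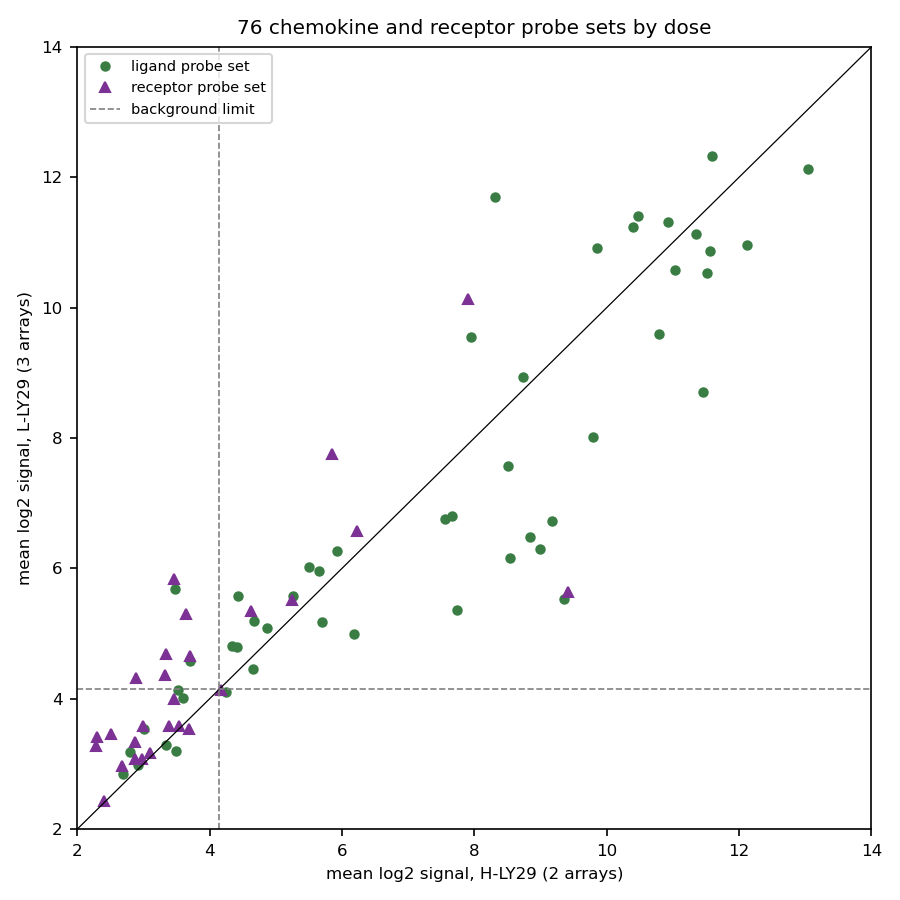
Mean log2 signal in L-LY29 (y axis, 3 arrays) against H-LY29 (x axis, 2 arrays) for the 76 probe sets; circles are ligands, triangles receptors, the solid line equal means and the dashed lines the background limit of 4.14. Receptors crowd the lower left corner, mostly above the line of equal means, and ligands spread to both sides at high signal.

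Over all 76 probe sets, 31 were higher, 12 lower and 33 did not pass, against 58.9% called among all 45037 probe sets, 28.6% higher and 30.3% lower. Probe sets of one gene did not always agree. Of 17 genes with several, 7 had at least 2 called, and Ccl25 and Cxcl12 had calls in both directions, for Cxcl12 only through a probe set near background. The brightest and second probe sets gave like differences for Cxcl12 and Cxcl14, and, among probe sets above background in both doses, differences over 1 log2 unit apart for Ccl9, Ccr1, Ccl25, Cxcl1, Cxcl16 and Cx3cl1.

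**Figure D4:**
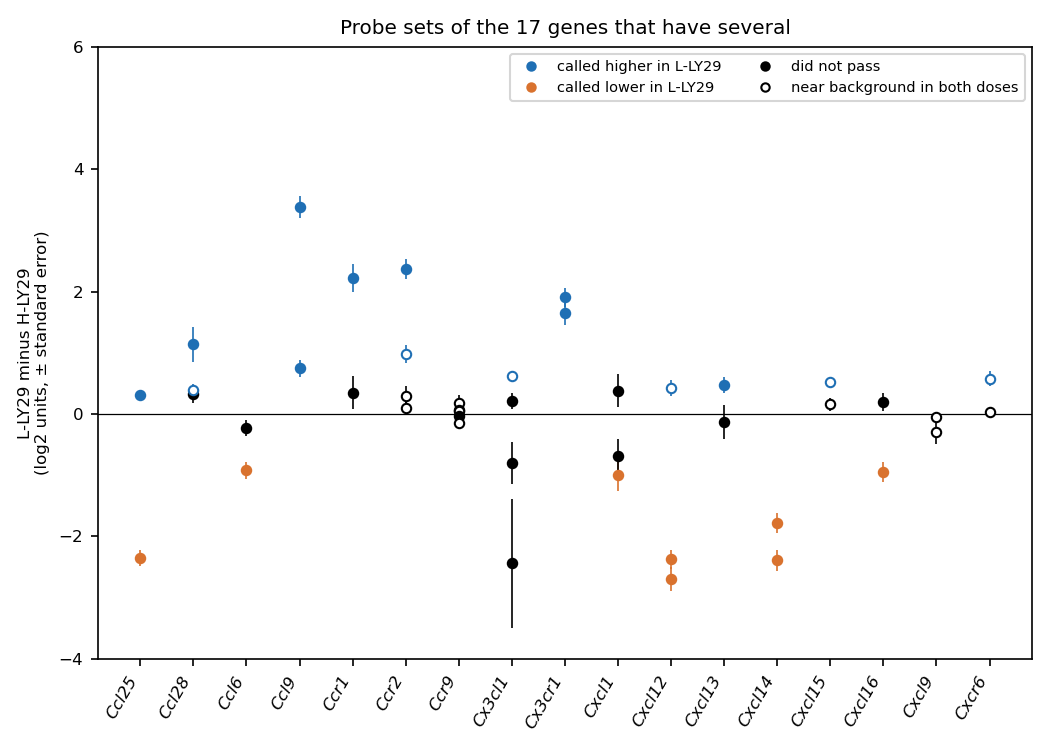
Difference L-LY29 minus H-LY29 in log2 units (y axis, bars are standard errors) of each probe set of the 17 genes that have several; colour gives the call over all probe sets and open circles are near background in both doses. Cxcl14 has its probe sets close together, while Ccl9, Ccl25 and Ccr1 have them far apart.

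Chemokines and scavenging receptors whose symbols lie outside the naming rule also went both ways, with 2 higher, 4 lower and 3 not passed among 9 tested. Over all genes tested 27.1% were higher and 46.6% lower. Ackr4, which scavenges Ccl25 among others, was lower in L-LY29 with a difference of -3.73, as were the chemerin gene Rarres2 at -3.79 and Mif at -1.01, while the chemerin receptor gene Cmklr1 was higher by 1.25. Ackr1, the venular receptor that binds inflammatory chemokines, was higher by 2.28 (limma adjusted p = 0.00117, the highest of these 5); it and Ackr3 were named after their values were seen. Endothelial markers moved with Ackr1, 5 of 9 higher and 1 lower with a median of 0.93, beside the same 27.1% and 46.6%. Their linear sums ran from 1823 to 2341 in L-LY29 and from 1363 to 1504 in H-LY29. What the endothelial markers contribute was not tested.

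Genes that bind or cleave chemokines stood on the H-LY29 side, with 0 higher, 11 lower and 4 not passed of 15 tested by limma and a median of -1.90, and 0 were higher at an unadjusted p under 0.05 as well. Over all genes tested 27.1% were higher and 46.6% lower. The fibroblast and pericyte markers given above were lower too, and their part in these values was not tested. The differences were -4.12 for Mmp9, a protease that trims several CXC ligands, -3.09 for the heparan sulfate sulfotransferase Hs6st1, -2.05 for the heparan sulfate carrier Gpc1 and -1.04 for the sheddase Adam17, which releases Cx3cl1 and Cxcl16. Receptor signalling genes were divided, with 12 higher, 13 lower and 3 not passed of 28 and a median of -0.18: the G protein subunits Gnb1 and Gnb2 gave -2.41 and 1.97, and the arrestin Arrb1 and the Rac exchange factor Prex1 gave -2.18 and -1.59.

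Genes upstream of inflammatory chemokines were divided as well, beside 27.1% higher and 46.6% lower over all genes tested. Of 26 genes of NF-κB and cytokine signalling, 9 were higher, 11 lower and 6 did not pass, with a median of -0.13. Cebpb, a transcription factor of myeloid inflammation, was higher in L-LY29 by 2.22, and the NF-κB inhibitor Nfkbie and the cytokine receptors Osmr and Il17ra were lower, at -2.74, -1.90 and -1.57. Of 12 interferon pathway genes tested, 4 were higher, 6 lower and 2 did not pass, with a median of -0.52, and Ifng was near background in both doses. The receptor chains differed in sign, with Ifnar2 higher by 1.48, Ifngr1 by 1.01 and Ifngr2 by 0.89, and Ifnar1 lower at -2.17.

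The cell type lists not yet given were mixed too, where 27.1% of all genes tested were higher and 46.6% lower. Astrocyte markers, from cells that can make Ccl2, Cxcl10 and Cxcl12, were higher in 1 and lower in 5 of 10 cases with a median of -1.38, and their linear sums ran from 17513 to 20907 in L-LY29 and from 23638 to 24550 in H-LY29. Of 8 border macrophage markers 2 were higher and 5 lower, with a median of -1.25 and linear sums from 979 to 1499 in L-LY29 and from 1152 to 1417 in H-LY29. Oligodendrocyte markers were higher in 6 and lower in 3 of 9 cases, and retinal and neuronal markers higher in 3 and lower in 2 of 6. Few markers were bright enough to be tested for B cells (2 of 5 on the array), dendritic cells (3 of 6, Ccl17 among them) and mast cells and eosinophils (1 of 7, with 5 near background in both doses), the cells known for Cxcr5, Xcr1 and Ccr3.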

How the data were processed

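RNA of optic nerves cultured with L-LY29 (3 arrays) or H-LY29 (2 arrays) was analysed, each array being assigned to its dose by its label. The authors read the arrays with Affymetrix software and name MAS-5 normalisation in GeneSpring. What they deposited are log2 signals, 1 column per array. Values equal to the last digit recur between arrays, so whether that algorithm made them was not settled. They were used as deposited. The members and gene lists were chosen with earlier results of these data known.

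Of the 45101 probe sets, 34945 name 1 gene, 932 several and 9160 none, and 64 are controls. Each gene was read from its brightest probe set, kept where the mean over all arrays reached the 40th percentile, 4.77. The doses were compared with limma 3.58.1 in R 4.3.3 (lmFit, eBayes with an intensity trend, two-sided, Benjamini-Hochberg adjusted p under 0.05), over 12935 genes and, without a filter, over 45037 probe sets. The fit was tested on simulated data. Lists were counted and not tested. Some called list genes had a mean under the filter in the dimmer dose and were tested only through the other dose. These genes add nothing to the counts. Beside those named above they were Was, Tnf, Cbr2, Syt1 and Pax5 in H-LY29 and Dpp4, Mrc1 and Kcnj8 in L-LY29. A bound sets the dimmer dose to the background limit. Arrays are given for the called members with the largest differences, up to 14 ligands and 8 receptors. They are also given for Cxcl12, Cxcr4, Cx3cl1, Cx3cr1, Ccl2 and Ccr2, and for Plac8, Krt6b and Krt12, chosen after their values were seen. Up to 4 genes of each other list with the smallest adjusted p are named, beside Ackr1, Ackr3, Ppbp, Ltf and Pdgfra, chosen likewise. Further list genes are named for their direction, for passing the filter through a single dose or for being near background. The alternatives were other filters, a floor, quantile normalization, equal medians, other probe sets, no trend, a replicate block, each array left out, an unpaired t-test and other background limits.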

Additional observations from a re-analysis of the deposited data

How the results depend on the processing

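Of 428 pairs of a tested gene and an alternative, 362 kept direction and side of the threshold, 41 lost a call, 14 gained one and 11 changed sign. Of the 23 called genes, 12 kept call and direction under every alternative that gave them a value (Ccl3, Ccl4, Ccl12, Ccl27a, Ccr2, Ccr10, Cx3cr1, Cxcl3, Cxcl12, Cxcl14, Cxcl17 and Cxcr4). Of these only Cxcl12 and Cxcl14 had a value under all of them, as 1 tested probe set gives no second brightest one, Ccl27a, Ccr2, Ccr10 and Cxcl17 fell under the 60th percentile filter, and Ccr2 and Cxcl17 fell under the main filter without any L-LY29 array. With no filter as well, an alternative chosen after seeing the data, Ccr2 ran from 2.29 to 2.49 without single L-LY29 arrays. Cxcl17 ran from 2.07 to 2.28, and both kept their calls. Ccr2, Ccr10 and Cxcl17 had reached the main filter through L-LY29 alone. Counts of 12 higher and 11 lower (27.1% and 46.6% over all genes) became 7 higher with a filter at the 60th percentile. With no filter 23 were higher, beside 29.1% of all genes. The second brightest probe set (10 genes tested) gave 3 higher and 3 lower. The unpaired t-test called 7 lower, and 0 higher and 9 lower of the genes that bind or cleave chemokines. Apart from quantile normalization, given above, shares over all genes were not counted under the other alternatives, single arrays left out included. Counts under those have no like share beside them. Leaving out single arrays gave 9 to 12 higher and 7 to 9 lower, with 7 lower without H-LY29 replicate 2, L-LY29 replicate 1 or L-LY29 replicate 2.

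The median difference of 0.26 became 0.48 with equal array medians, -0.87 with the 60th percentile filter, -0.38 with the mean of the probe sets, 0.38 with no filter, 0.46 with quantile normalization and -0.46 with the second brightest probe set. It ran from -0.56 to 0.26 with single arrays left out, so its sign is not settled (0.01 without H-LY29 replicate 1, -0.36, -0.56 and -0.43 without L-LY29 replicates 1, 2 and 3). Near background in both doses were 16 genes with the 40th percentile as limit and 1 with the highest trpn value as limit, against 9. Sign changes were Ccl25 (0.32) with the second brightest probe set, Cxcl16 with the mean of the probe sets (-0.38) and the second brightest (-0.94), and Cxcl1 with the mean (-0.43), quantile normalization (-0.65) and the second brightest (-0.69). With single arrays left out Cxcl1 ran from -0.82 to 0.77 and Cxcl5 from -1.80 to 0.057. The cause was not tested.

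The replicate numbers share only a number: deviations of same-numbered arrays correlated at 0.02 and 0.03. The fit with the replicate block called 10 higher and 10 lower, with a median of 0.28, and it crosses 2 pairs only, since L-LY29 replicate 3 has no partner. With 5 arrays, differences near the threshold could not be separated from the spread between arrays.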
